A study of Homo sapiens with 24 samples.

Results

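The androgen response of LNCaP:C4-2 prostate cancer cells under a non-targeting siRNA was described gene by gene. It comprised 6 of the 24 RNA-seq libraries of the series, chosen by their labels, with 3 libraries of cells given vehicle and 3 of cells given R1881. All 6 came from cells transfected with the non-gene-targeting siScramble pool (siSCR). LNCaP:C4-2 is a castration-resistant subline of the LNCaP lymph node metastasis line. R1881 is a synthetic androgen that is poorly metabolised. Cells were kept in phenol-red-free medium with charcoal-stripped serum, which is low in steroid hormones, so the vehicle libraries are an androgen-poor state of a cell line and not normal prostate. They were transfected, left for 48 h, transfected again and then given R1881 at 1 nM or ethanol for 72 h. The other libraries used here for comparison were siMETTL3-transfected LNCaP:C4-2 and siSCR-transfected 22Rv1, a prostate carcinoma xenograft line, each with 3 vehicle and 3 R1881 libraries under the same schedule. METTL3 is the catalytic subunit of the enzyme that writes m6A on RNA. Nothing in the labels says that the 3 libraries of a group came from separate cultures, so the p-values measure the spread between these libraries, which may be technical.

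Androgens are steroid hormones that change transcription in luminal prostate cells through DNA elements that are inverted repeats of a hexamer near AGAACA. They act beside pioneer factors such as FOXA1 and raise secretory genes, among them the kallikreins, together with lipid synthesis. They lower other genes, and androgen deprivation is a main treatment of prostate cancer. The comparison of R1881 with vehicle in siSCR cells asks which genes the hormone moves when METTL3 is not targeted.

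The 6 libraries held 16798308 to 21030473 counted fragments, and their 10 most abundant genes held 7.86% to 9.90% of them. The floor for a gene was 3 counts over the 3 libraries of a group, and counting intervals and floors cover counting error only. Correlations of log2 CPM, counts scaled to a common library size, within a group were at least 0.984 and between groups at most 0.966. The first principal component, with 66.1% of the variance, separated vehicle from R1881. On the second, with 14.4%, R1881 library 1 stood apart from R1881 libraries 2 and 3, and its mitochondrial share was 7.08%, against up to 9.73% in the other R1881 libraries and 8.02% to 8.48% in vehicle. Counts without this library are given for some lists below, and counts given only with it moved as well. Without it, genes that rose went from 7 to 5 (AP-1), 11 to 9 (glycolysis), 14 to 12 (cholesterol) and 8 to 10 (ion channels). Genes that fell went from 10 to 8 (integrins), 10 to 12 (WNT) and 5 to 7 (nuclear receptors, and ERBB, FGF and IGF genes). Smaller shifts in other lists are not all given. Levels below are CPM on library sizes scaled by the trimmed mean of M-values (TMM), given per library in the order 1, 2, 3 or as mean ± SD over n = 3 libraries, and changes are fitted log2 fold changes of R1881 over vehicle, written as log2. Summed luminal markers were at 4692 to 4726 CPM in vehicle and 6327 to 7230 CPM with R1881. KRT5, DCN, LUM, POSTN, MS4A1, INSM1 and NEUROD1, defining markers of basal, stromal, B cell and neuroendocrine cells, had no count in any of the 6 libraries. Other members of those lists were present, among them COL1A1, a fibrillar collagen, at 35.6 to 58.1 CPM, DLL3, a Notch ligand, at 11.4 to 15.8 CPM and the leukocyte antigen PTPRC at 1.11 to 1.53 CPM in vehicle and no count with R1881.

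R1881 changed 2484 of 16435 tested genes, which is 15.1%. A gene was called at an adjusted p below 0.05 and at least 1.5-fold by edgeR's quasi-likelihood test. Of these DEGs, 1215 rose (7.39% of genes tested) and 1269 fell (7.72%). The rises and falls were alike in typical size, with a median log2 fold change of 1.08 among genes that rose and -1.04 among those that fell, beside -0.03 over all genes. At the far end the rises outnumbered the falls. At least 4-fold rises numbered 252 against 197 falls, and at least 16-fold rises 70 against 38. R1881 libraries did not overlap vehicle libraries for 1197 of the genes that rose and 1250 of those that fell, and groups did not overlap for 41.0% of all genes. Without R1881 library 1, 1220 genes rose and 1244 fell, of which 1056 and 990 were in the full sets. Scaled by library size alone, 926 rose and 1800 fell, a share of rises of 33.97% against 48.9%, and the median of all genes moved from -0.03 to -0.15. In bulk libraries, fewer cells of a kind and less of an RNA per cell cannot be told apart.

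The genes that rose and fell lay at different levels. Genes called higher had a median of 11.6 CPM in vehicle and 26.95 CPM with R1881, and genes called lower 6.71 and 3.08 CPM. Above 100 CPM, 9.47% of 2312 genes rose and 2.81% fell. Between 1 and 5 CPM, 7.13% of 3000 genes rose and 14.3% fell. As a share of all CPM, the genes called higher went from 6.29% to 13.98%, and those called lower from 3.997% to 2.13%. The 10 genes with the largest gains made 26.4% of the CPM gained by genes that rose, while KLK2 and KLK3 together made 0.672%. Among 12933 protein-coding genes 1056 rose and 995 fell, and among 2139 long noncoding RNAs 103 rose and 187 fell.

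**Figure D1:**
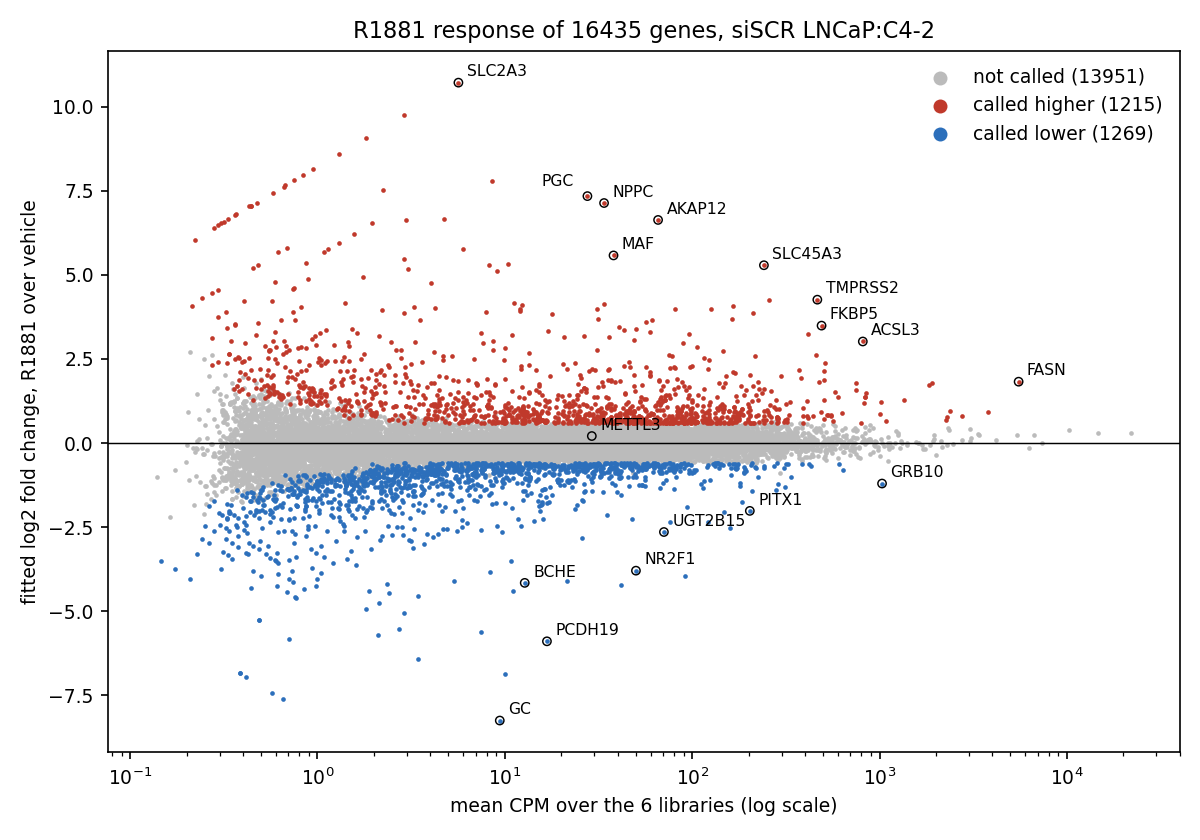
Fitted log2 fold change of R1881 over vehicle (vertical axis) against the mean CPM over the 6 siSCR LNCaP:C4-2 libraries (horizontal axis, log scale) for 16435 genes, with 1215 called higher in red and 1269 called lower in blue. METTL3 lies close to 0, and the straight rows of points at the upper left are genes without counts in vehicle, whose fitted fold depends on the prior count.

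METTL3 itself was not called. METTL3 was at 29.2, 26.8 and 25.1 CPM in the vehicle libraries and 28.3, 31.8 and 33.5 CPM in the R1881 libraries, and the groups overlapped. Its log2 fold change was 0.21 (SE 0.11, edgeR adjusted p = 0.171), and an exact two-sided permutation test over 3 against 3 libraries, which cannot go below p = 0.1, gave p = 0.2.

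The genes long used to read androgen action rose together. Of 38 classical androgen-induced genes, all of which were tested, 37 rose and none fell, with a median log2 fold change of 2.43 beside -0.03 over all genes. The list was chosen as known androgen targets, so its direction describes these cells and is no independent result. KLK3, the gene of prostate-specific antigen (chr19:50854915-50860764, GRCh38), was at 20.8, 19.7 and 14.99 CPM in the vehicle libraries and 343, 299 and 298 CPM in the R1881 libraries. All R1881 libraries lay above all vehicle libraries, and the log2 fold change was 4.08 (SE 0.13, adjusted p = 9.19e-12). KLK2, its neighbour and paralog, was at 16.2, 17.2 and 11.4 CPM in the vehicle libraries and 238, 236 and 239.8 CPM in the R1881 libraries, log2 3.99. The 2 kallikreins resemble each other in sequence, and fragments that fit several places were left out, so their split is uncertain. TMPRSS2, the membrane serine protease whose promoter is often fused to ERG in prostate cancer (chr21:41464551-41531116), was at 48.98, 46.8 and 42.4 CPM in the vehicle libraries and 1149, 767 and 740.5 CPM in the R1881 libraries. R1881 library 1 held the highest value, and the groups did not overlap, with a log2 fold change of 4.26 (SE 0.23, adjusted p = 2.46e-09).

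SLC45A3, a prostate membrane transporter also called prostein, went from 12.03 ± 1.14 to 471 ± 79.5 CPM (log2 5.29), and FKBP5, a co-chaperone of steroid receptors, from 80.04 ± 5.23 to 901 ± 62.96 CPM (log2 3.49). Both were called, with groups that did not overlap. TRPM8, a cold-sensing cation channel, went from 0.401 ± 0.108 to 16.1 ± 3.42 CPM (log2 5.304), and the transcription factor MAF from 1.55 ± 0.122 to 74.5 ± 6.81 CPM (log2 5.58). CHRNA2, a nicotinic receptor subunit, went from 0.0687 ± 0.0767 to 17.1 ± 2.32 CPM, with 4 vehicle counts in all, 3 of them in library 2. Its log2 value was 7.804, and 8.999 without vehicle library 2. STEAP4, a metalloreductase, had no count in vehicle and 1.75, 3.18 and 2.905 CPM in the R1881 libraries, and was at least log2 5.64 higher against the floor of 3 counts over the vehicle libraries together. STEAP2, named as the only member not called and so after its value was seen, had a log2 fold change of 0.48 (adjusted p = 0.0298).

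**Figure D2:**
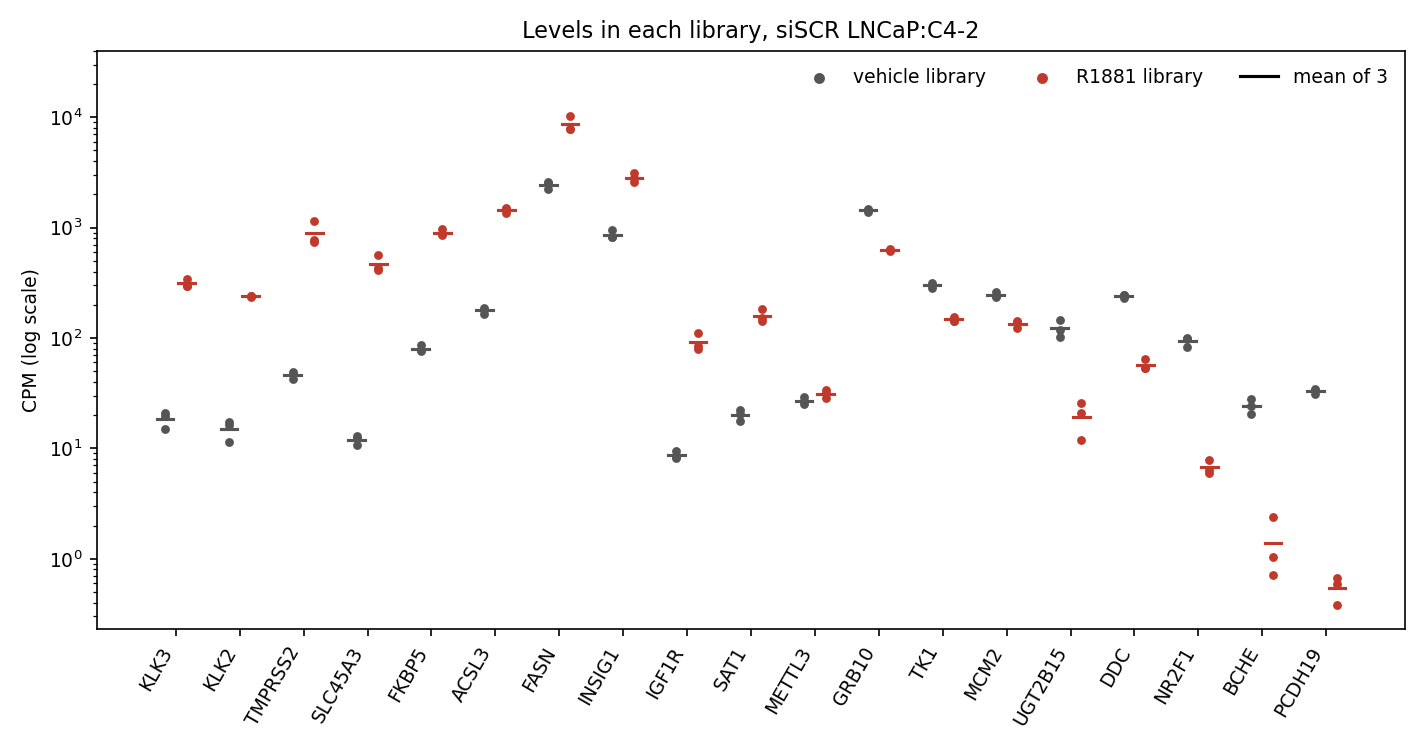
CPM (log scale) of 19 genes in each of the 3 vehicle (grey) and 3 R1881 (red) libraries of siSCR LNCaP:C4-2, with bars at the mean of 3. From KLK3 to SAT1 the R1881 points lie above the vehicle points, METTL3 overlaps, and from GRB10 to PCDH19 the R1881 points lie below. Genes were chosen for display with their values known.

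Short promoter windows of the classical genes are shown because they hold the letters of the androgen response element hexamer. Promoters reached from 250 bases before to 50 bases after the gene start (RefSeq, GRCh38.p14), and 11402 tested genes had one. The full inverted repeat, AGAACA and TGTTCT with any 3 bases between, was in none of these promoters, and a looser form, GNACA and TGTNC with any 3 bases between, in 0.193% of them. The hexamer AGAACA, read on both strands, was in 8.84% of tested promoters, 9.79% of promoters of genes that rose, 9.496% of those that fell, and 14.7% of the 170 promoters of genes that rose at least 4-fold. Over all 27305 promoters, of genes tested or not, the share was 14.85%. These shares were not tested against each other. Of 29 classical genes with a promoter 3 held it (10.3%). Capitals mark the hexamer, at position -170 from the gene start in KLK3, 0 in FKBP5 and 22 in PMEPA1.
KLK3: tctagtaattgcAGAACAgcaagtgctagc
FKBP5: caccactaccccAGAACAaactcctacctc
PMEPA1: cttgacttctccAGAACAagcctcctggtc
The KLK3 window lies at chr19:50854733-50854762 (+ strand), the FKBP5 window at chr6:35728566-35728595 (- strand) and the PMEPA1 window at chr20:57711433-57711462 (- strand). A match is a run of letters and not a measured binding site. PMEPA1, an inhibitor of TGF-beta signalling, was at 16.7, 20.5 and 18.2 CPM in the vehicle libraries and 204, 166 and 149.97 CPM in the R1881 libraries, log2 3.23.

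Tested kallikreins and secreted prostate products rose, with 1 exception. Of 22 members of that list 10 passed the filter on low counts, and 9 of them rose and 1 fell. Over all genes 7.39% rose and 7.72% fell. Members near silence in vehicle, such as ORM1 and ORM2, could pass through the R1881 libraries alone, and their rise was then fixed beforehand. Among untested members KLK14 had 24 counts in vehicle and 8 with R1881, and PIP 0 and 11. ORM2, an acute-phase glycoprotein, went from 0.121 ± 0.0262 to 5.66 ± 0.267 CPM (log2 5.46). Its near copy ORM1 had 2 vehicle counts, both in library 3, which gives a count ratio of log2 6.44 (95% interval 4.56 to 9.498), and the split between the copies is uncertain. The member that fell was ACP3, prostatic acid phosphatase, named after its value was seen, which went from 10.5 ± 0.457 to 4.39 ± 0.319 CPM (log2 -1.27, adjusted p = 2.42e-05). Of 20 tested STEAP and prostate surface proteins 9 rose and 1 fell, and the one fall was lost without vehicle library 3.

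The largest rises in fold among genes of at least 5 CPM came from genes near silence in vehicle. SLC2A3, a neuronal-type glucose transporter, had no count in vehicle and 15.2, 7.397 and 11.3 CPM in the R1881 libraries, at least log2 7.77 higher. SLC26A3, an intestinal chloride and bicarbonate exchanger, also without vehicle counts, reached 4.83, 6.54 and 6.06 CPM, at least log2 6.79 higher. PGC, the pepsinogen found in gastric and prostate secretions, was at 0.155, 0.454 and 0.383 CPM in the vehicle libraries and 68.3, 46.03 and 50.2 CPM in the R1881 libraries (log2 7.35, SE 0.27). NPPC, the precursor of C-type natriuretic peptide, was at 0.517, 0.353 and 0.547 CPM in the vehicle libraries and 115, 41.7 and 45.05 CPM in the R1881 libraries, with the highest value in R1881 library 1 (log2 7.14, SE 0.53, and 6.52 without that library). AKAP12, a scaffold for protein kinase A, was at 1.08, 1.87 and 0.93 CPM in the vehicle libraries and 142, 118 and 131 CPM in the R1881 libraries (log2 6.64, SE 0.18). NBL1, a BMP antagonist, went from 0.0841 ± 0.146 to 9.44 ± 2.47 CPM, with 5 vehicle counts, all in library 2. The amino acid carrier SLC38A4 had 3 counts in vehicle, all in library 1, and a count ratio of log2 6.79 (95% interval 5.23 to 9.08).

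By CPM gained, lipid genes led. The 8 largest gains were FASN, SCD, ABHD2, INSIG1, PGK1, CKB, ACSL3 and FADS2, and 5 of these make or activate fatty acids or control sterol synthesis. FASN, which builds palmitate from malonyl-CoA, was at 2567, 2514 and 2220.1 CPM in the vehicle libraries and 10224, 7755 and 7882 CPM in the R1881 libraries (log2 1.82, SE 0.15, adjusted p = 2.59e-07). R1881 library 1 was highest, and the groups did not overlap. SCD, the desaturase that makes oleate, went from 2624 ± 329 to 5005 ± 654 CPM, and FADS2, which desaturates polyunsaturated fatty acids, from 1690.3 ± 126 to 2918 ± 347 CPM. ACSL3, which couples fatty acids to coenzyme A, was at 166, 181 and 189 CPM in the vehicle libraries and 1368, 1514 and 1468 CPM in the R1881 libraries (log2 3.02, SE 0.10). The hydrolase ABHD2 went from 859 ± 63.00 to 2943 ± 112 CPM and CKB, brain-type creatine kinase, from 1994 ± 139 to 3507 ± 841 CPM.

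Of 29 members of the fatty acid synthesis and elongation list 25 were tested, of which 14 rose, 2 fell and 9 were not called, with a median log2 fold change of 0.79. The elongase ELOVL5 went from 135 ± 8.61 to 607 ± 26.5 CPM (log2 2.17) and ELOVL7 from 27.6 ± 2.998 to 133 ± 21.7 CPM (log2 2.27). The 2 that fell, ACSL5 (log2 -1.54) and ELOVL6 (log2 -0.86), named after their values were seen, activate and elongate fatty acids as the risen members do. All 29 cholesterol and SREBP pathway genes were tested, and 14 rose, none fell and 15 were not called, with a median of 0.58. INSIG1, which holds SREBP in the endoplasmic reticulum when sterols are ample, was at 825, 945 and 815 CPM in the vehicle libraries and 2809, 2594 and 3091 CPM in the R1881 libraries (log2 1.72, SE 0.10). The synthesis enzymes MSMO1 and FDFT1 (squalene synthase) had log2 fold changes of 1.41 and 1.28. The background shares of genes called were 7.39% higher and 7.72% lower.

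**Figure D3:**
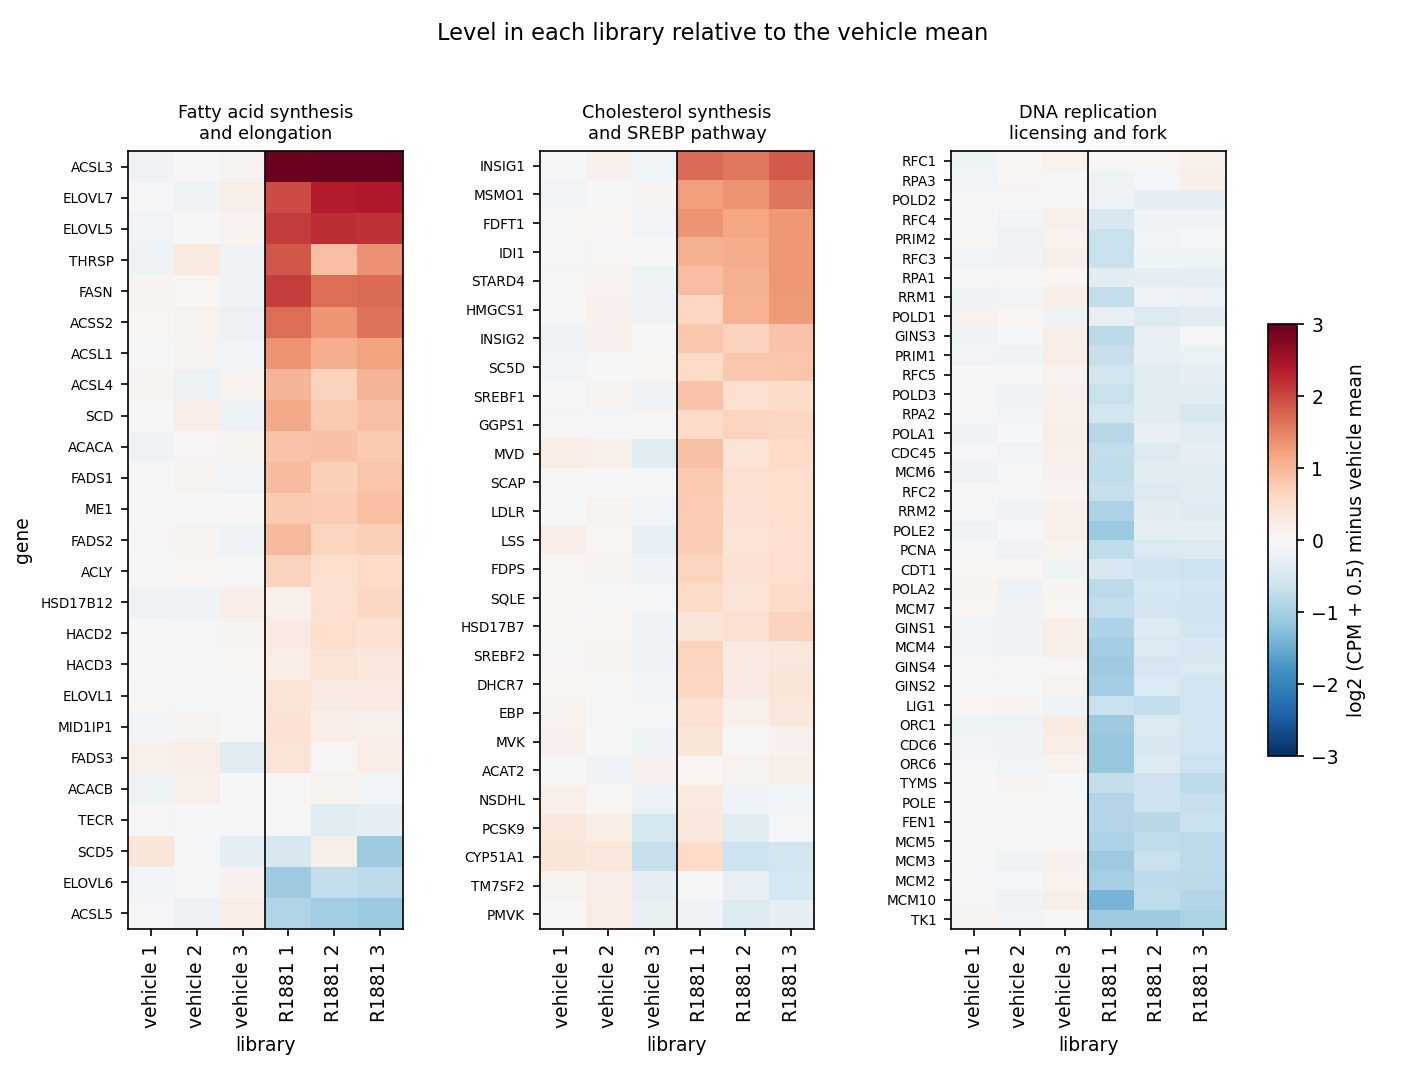
Level of tested members of 3 lists in each library, as log2 (CPM + 0.5) minus the mean of the 3 vehicle libraries, with genes ordered by fold change and colours that stop at 3 in either direction. R1881 columns are mostly red for the 25 fatty acid and 27 of the 29 cholesterol genes, those drawn, and blue for the 40 DNA replication genes, where R1881 library 1 has the lowest R1881 value for 35 of 40 genes.

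Breakdown of fatty acids moved less evenly. Of 28 oxidation and peroxisome genes 9 rose (32.1%) and 1 fell (3.57%), against 7.39% and 7.72% of all genes. The median log2 fold change was 0.11, or -0.01 by library size alone. ACADL, long-chain acyl-CoA dehydrogenase, was at 7.23, 7.27 and 8.65 CPM in the vehicle libraries and 68.5, 85.9 and 83.2 CPM in the R1881 libraries (log2 3.36, SE 0.15). The peroxisomal genes PEX10 (assembly), CROT (carnitine transfer) and ECI2 (isomerisation of unsaturated chains) had log2 fold changes of 1.35, 1.32 and 1.21. Of 28 tested glycerolipid, phospholipid and lipid droplet genes 4 rose (14.3%) and 1 fell (3.57%). CHPT1, which makes phosphatidylcholine, went from 401 ± 19.6 to 706 ± 32.6 CPM, and SPTLC3, a subunit of serine palmitoyltransferase, from 10.1 ± 0.756 to 1.76 ± 0.579 CPM (log2 -2.51).

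Of 27 tested glycolysis genes 11 rose (40.7%, against 7.39% of all genes) and none fell, with a median of 0.46. PGK1, phosphoglycerate kinase, was at 1586, 1849 and 1458 CPM in the vehicle libraries and 3601, 2798 and 3056 CPM in the R1881 libraries (log2 0.95). ALDOC and ENO2, the brain-type aldolase and enolase, had log2 fold changes of 1.24 and 1.11, with their highest values in R1881 library 1, and PFKFB2, which makes the glycolytic activator fructose 2,6-bisphosphate, 1.13. Of 21 tested polyamine genes 5 rose and none fell, and 1 fell without R1881 library 1. SAT1, which acetylates spermidine and spermine for export, was at 20.6, 22.1 and 17.8 CPM in the vehicle libraries and 181, 142 and 152 CPM in the R1881 libraries (log2 2.97, SE 0.15). ODC1 and AMD1, which feed polyamine synthesis, went from 463 ± 17.9 to 1202 ± 21.6 CPM and from 440.3 ± 43.6 to 819 ± 36.6 CPM. None of 36 nuclear respiratory chain subunits or 13 mitochondrially encoded protein genes was called, with medians of 0.04 (-0.08 by library size alone) and 0.22, and 1 mitochondrial gene was called higher without R1881 library 1.

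Of 24 tested amino acid carriers 6 rose (25%, against 7.39% of all genes) and none fell (against 7.72%). Without R1881 library 1, 4 fell, and without vehicle library 3, 2 fell. SLC43A1, a carrier of large neutral amino acids, was at 119, 121 and 123 CPM in the vehicle libraries and 512, 461 and 463 CPM in the R1881 libraries (log2 1.98, SE 0.09). The lysosomal carrier SLC36A1 went from 32.5 ± 2.47 to 81.1 ± 7.14 CPM. MPC2, a subunit of the mitochondrial pyruvate carrier, went from 97.6 ± 4.55 to 289 ± 2.74 CPM (log2 1.57), and GNMT, glycine N-methyltransferase, from 2.44 ± 0.402 to 17.5 ± 2.17 CPM (log2 2.83).

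Of 34 COPII, COPI and CREB3 trafficking genes 32 were tested, and 9 rose (28.1%) and none fell, against 7.39% and 7.72% of all genes. All 32 log2 fold changes lay above 0, with a median of 0.42. Scaled by library size alone, 5 rose and 30 of 32 lay above 0. KDELR3, which returns chaperones to the endoplasmic reticulum, was at 12.6, 13.1 and 14.4 CPM in the vehicle libraries and 42.4, 28.9 and 35.7 CPM in the R1881 libraries (log2 1.41, SE 0.20). The COPII coat members SEC24D and SEC24A, which select cargo, went from 31.3 ± 3.79 to 74.2 ± 4.97 CPM and from 93.03 ± 8.36 to 183 ± 3.35 CPM. Of 32 chaperone and unfolded protein response genes 5 rose (15.6%) and 1 fell (3.1%). The fall was lost without R1881 library 2 or without vehicle library 2. ERN1, the sensor IRE1, had a log2 fold change of 1.28, and PDIA5, a disulfide isomerase, 1.203. Of 35 hexosamine and glycosylation genes 7 rose (20%) and 3 fell (8.57%, near the share of all genes). ST6GALNAC1, which adds sialic acid to O-glycans, was at 11.5, 8.33 and 9.03 CPM in the vehicle libraries and 159, 147 and 152 CPM in the R1881 libraries (log2 3.99, SE 0.13). UAP1, which makes UDP-N-acetylglucosamine, went from 157 ± 2.23 to 602 ± 20.96 CPM (log2 1.94).

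Promoter windows of trafficking genes are shown for the TGACGTG letters bound by CREB3-family and ATF6-type factors. Of the 28 trafficking genes with a promoter 9 held them on either strand (32.1%), against 2.53% of tested promoters and 3.89% of promoters of genes that rose. The list was chosen around secretory trafficking and CREB3 genes, so its share describes the list and no effect of R1881. Capitals mark the letters or their reverse complement.
SEC24A: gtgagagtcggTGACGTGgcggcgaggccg
KDELR3: gccgccctggcCACGTCAccgcccggccaa
The SEC24A window lies at chr5:134648595-134648624 (+ strand) and the KDELR3 window at chr22:38468040-38468069 (+ strand). Both genes rose, as given above. Of the 9 genes that held the letters 3 rose and 6 were not called, namely COPA, COPB1, COPB2, COPE, SEC13 and SEC23A.

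Of 40 DNA replication licensing and fork genes, all tested, 19 fell (47.5%), none rose and 21 were not called. Over all genes 7.72% fell and 7.39% rose. Of the 40 log2 fold changes 38 lay below 0, and the median was -0.54. R1881 library 1 held the lowest R1881 value of 35 of the 40, and without it 10 fell. TK1, thymidine kinase of S phase, was at 316, 285 and 299.6 CPM in the vehicle libraries and 143, 144 and 156 CPM in the R1881 libraries (log2 -1.02, SE 0.12, adjusted p = 1.87e-05). MCM2 and MCM3, parts of the replicative helicase, were at 238, 233 and 261 CPM in the vehicle libraries and 122, 142 and 140.1 CPM in the R1881 libraries, and at 130.4, 119 and 144 CPM in the vehicle libraries and 61.1, 81.8 and 75.7 CPM in the R1881 libraries. MCM10, which loads onto the helicase, was at 61.6, 58.99 and 73.05 CPM in the vehicle libraries and 24.3, 37.96 and 34.8 CPM in the R1881 libraries, with its lowest value in R1881 library 1 (log2 -0.996). The groups did not overlap for these 4 genes. The part of R1881 library 1 and its mitochondrial share in these values was not tested.

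E2F letters, which mark promoters of S-phase genes, are shown for 4 replication genes that fell. TTTCCCGC or TTTGGCGC, on either strand, was in 15 of the 34 replication genes with a promoter (44.1%), in 3.60% of tested promoters, in 4.92% of promoters of genes that fell and in 1.56% of those that rose. Of the 15 replication genes that held them 9 fell and 6 were not called. The share in replication genes describes that list, called or not, and no effect of R1881. Capitals mark the letters or their reverse complement.
MCM3: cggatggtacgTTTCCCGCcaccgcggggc
TYMS: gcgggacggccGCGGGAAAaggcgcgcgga
CDC6: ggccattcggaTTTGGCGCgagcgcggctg
POLE: tgggtgggagcGCGCCAAAtttctcccctg
The windows lie at chr6:52284898-52284927 (- strand) in MCM3, chr18:657603-657632 (+ strand) in TYMS, chr17:40287875-40287904 (+ strand) in CDC6 and chr12:132687342-132687371 (- strand) in POLE. TYMS, thymidylate synthase, had a log2 fold change of -0.72. The licensing factor CDC6 and the leading-strand polymerase POLE, shown for their windows with their values known, had -0.71 and -0.73.

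Of 37 mitosis and G2/M genes 8 fell (21.6%) and none rose, against 7.72% and 7.39% of all genes, with a median of -0.34. R1881 library 1 held the lowest R1881 value of 32 of them, and 5 fell without it. AURKB, a kinase of chromosome segregation, went from 46.6 ± 1.797 to 25.4 ± 1.24 CPM (log2 -0.88), and FOXM1, a transcription factor of G2, from 212 ± 9.88 to 128 ± 3.12 CPM (log2 -0.73). Of 31 DNA repair genes 9 fell and none rose, with a median of -0.43, and 5 fell without R1881 library 1 and also without vehicle library 3. BARD1, the partner of BRCA1, was at 162, 163 and 185 CPM in the vehicle libraries and 62.1, 93.4 and 84.1 CPM in the R1881 libraries (log2 -1.09, SE 0.14). Of 27 tested G1 and RB-E2F genes 2 rose (7.41%, near the share of all genes) and 5 fell (18.5%), and 1 rose without vehicle library 3. The cyclin CCNE2 went from 17.2 ± 0.943 to 7.47 ± 1.88 CPM (log2 -1.203) and E2F2 from 23.4 ± 1.26 to 12.3 ± 0.675 CPM (log2 -0.92), while the CDK inhibitor CDKN1C went from 15.05 ± 2.95 to 47.8 ± 19.8 CPM (log2 1.67). Of 25 p53 target genes 1 rose (4%) and 8 fell (32%), and 5 fell without R1881 library 2 and also without vehicle library 2. The one that rose was GDF15, a stress-induced cytokine, at 117, 178 and 90.4 CPM in the vehicle libraries and 1258, 516 and 602 CPM in the R1881 libraries, highest in R1881 library 1 (log2 2.62, SE 0.34).

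Reported androgen-repressed genes fell more often than they rose. Of 27 members 23 were tested, of which 12 fell (52.2%) and 4 rose (17.4%), with a median of -0.71. Over all genes 7.72% fell and 7.39% rose. The list was chosen as genes reported to fall with androgen, so its direction describes these cells and is no independent result. BCHE, butyrylcholinesterase, was at 24.02, 20.3 and 28.2 CPM in the vehicle libraries and 0.713, 2.38 and 1.03 CPM in the R1881 libraries (log2 -4.16, SE 0.30, adjusted p = 5.99e-08, and log2 -4.77 without R1881 library 2). AMIGO2, an adhesion protein, went from 4.61 ± 0.612 to 0.212 ± 0.159 CPM (log2 -4.47, and -5.08 without R1881 library 2). DDC, aromatic amino acid decarboxylase, was at 243, 245 and 231 CPM in the vehicle libraries and 53.95, 64.8 and 53.4 CPM in the R1881 libraries (log2 -2.06, SE 0.10).

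The enzymes that conjugate androgens split. Of 17 tested genes of androgen glucuronidation and steroid metabolism 4 rose (23.5%) and 5 fell (29.4%), against 7.39% and 7.72% of all genes. UGT2B15 and UGT2B17, which glucuronidate testosterone and dihydrotestosterone, were at 119, 102 and 145 CPM in the vehicle libraries and 11.8, 20.7 and 25.7 CPM in the R1881 libraries, and at 24.6, 22.9 and 31.8 CPM in the vehicle libraries and 3.89, 5.56 and 6.89 CPM in the R1881 libraries. Their log2 fold changes were -2.65 and -2.27. UGT2B28, of the same family, was at 8.78, 10.3 and 13.8 CPM in the vehicle libraries and 31.4, 56.2 and 60.5 CPM in the R1881 libraries (log2 2.17), so its R1881 libraries lay above vehicle where those of the other pair lay below. These genes are near copies, and the split of fragments between them is uncertain. CYP11A1, the side-chain cleavage enzyme that starts steroid synthesis, was at 0.413, 0.353 and 0.766 CPM in the vehicle libraries and 27.2, 10.1 and 15.5 CPM in the R1881 libraries (log2 5.104, SE 0.42).

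The largest falls in fold included several liver and gut genes, while the largest rises, given above, also held genes of gut or stomach, SLC26A3 and PGC. GC, the vitamin D binding protein, was at 20.98, 15.5 and 19.8 CPM in the vehicle libraries and 0, 0.0611 and 0.0985 CPM in the R1881 libraries. Its 3 counts in the R1881 libraries together gave a count ratio of log2 -8.42 (95% interval -10.699 to -6.87). SI, sucrase-isomaltase of the gut brush border, was at 15.2, 13.9 and 14.9 CPM in the vehicle libraries and 0.548, 0.122 and 0.197 CPM in the R1881 libraries (log2 -5.62, and -6.42 without R1881 library 1), and GCG, proglucagon, went from 6.83 ± 2.17 to 0.0773 ± 0.0672 CPM (log2 -6.42, and -5.801 without R1881 library 3). PLA2G2A, a secreted phospholipase, went from 19.8 ± 1.08 to 0.167 ± 0.0621 CPM (log2 -6.86). PCDH19, a protocadherin, was at 34.1, 31.3 and 33.6 CPM in the vehicle libraries and 0.384, 0.672 and 0.591 CPM in the R1881 libraries (log2 -5.899, SE 0.19). CCDC83, UNC13C, a synaptic vesicle priming factor, and COLEC12, a scavenger receptor, had log2 fold changes of -5.52 (-6.51 without R1881 library 2), -5.05 and -4.56. Of 30 members of the HNF and gastrointestinal list 15 were tested, of which 8 fell (53.3%) and 2 rose (13.3%). Over all genes 7.72% fell and 7.39% rose. The list had a median of -0.80 and a highest log2 fold change of 2.13. LGALS4, a gut galectin, went from 2.596 ± 0.777 to 0.663 ± 0.268 CPM and TTR, the thyroxine carrier, from 2.26 ± 0.461 to 0.636 ± 0.249 CPM.

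By CPM lost the largest fall was GRB10, an adaptor that restrains insulin and IGF1 receptors, at 1377, 1457 and 1483 CPM in the vehicle libraries and 623, 641 and 608 CPM in the R1881 libraries (log2 -1.21, SE 0.08, adjusted p = 2.87e-08). KIF5B, a kinesin heavy chain, went from 806 ± 47.8 to 465 ± 46.6 CPM, and SELENBP1, selenium binding protein, from 447 ± 64.02 to 179.5 ± 9.28 CPM. The homeobox factor PITX1 was at 344, 317 and 316 CPM in the vehicle libraries and 97.3, 72.6 and 71.3 CPM in the R1881 libraries (log2 -2.02). CPNE3, a calcium-binding membrane protein, and ATP1B1, the sodium pump beta subunit, had log2 fold changes of -1.02 and -1.22. PHGDH, which starts serine synthesis, had -0.62 and fell short of the fold threshold without R1881 library 2 (-0.53).

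Receptors and coregulators changed in both directions. Of 32 tested nuclear receptors 5 rose and 5 fell, 15.6% each, against 7.39% and 7.72% of all genes. NR2F1, the orphan receptor COUP-TFI (chr5:93583337-93594615), was at 100.4, 83.02 and 96.96 CPM in the vehicle libraries and 6.03, 7.82 and 6.35 CPM in the R1881 libraries, a log2 fold change of -3.797 (SE 0.21, adjusted p = 3.42e-09). NR4A1, an immediate early orphan receptor, went from 22.4 ± 1.23 to 96.6 ± 26.6 CPM and RARB, a retinoic acid receptor, from 1.82 ± 0.899 to 7.14 ± 0.378 CPM. Of 29 tested steroid receptor coregulators and pioneer factors 7 rose and 2 fell, and 1 fell when any library other than R1881 library 1 was left out. ZBTB16, a zinc finger repressor, went from 3.62 ± 0.747 to 58.3 ± 17.7 CPM and SPDEF, an ETS factor of prostate secretory cells, from 60.8 ± 2.77 to 242 ± 51.3 CPM. FOXA1 had a log2 fold change of -0.28 (adjusted p = 0.0174), named as the best known pioneer factor with its value known. Of 19 tested glucocorticoid-responsive genes, several of which the classical androgen list also holds, 11 rose and 1 fell. SGK1, a kinase that controls ion transport, went from 1.400 ± 0.293 to 13.4 ± 1.899 CPM, CRISPLD2, a secreted protein, from 2.14 ± 0.513 to 19.8 ± 7.76 CPM and ERRFI1, an inhibitor of EGFR, from 26.1 ± 2.74 to 187 ± 13.96 CPM. MT2A, a metallothionein, was the one that fell and went from 75.9 ± 0.202 to 31.9 ± 1.95 CPM (log2 -1.25). Of 24 tested zinc and metallothionein genes 6 fell and 1 rose, and 2 rose without vehicle library 3.

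Of 20 tested ERBB, FGF and IGF genes 4 rose, 5 fell and 11 were not called. IGF1R, the IGF1 receptor, was at 8.37, 8.18 and 9.52 CPM in the vehicle libraries and 110.3, 84.6 and 79.9 CPM in the R1881 libraries (log2 3.398, SE 0.19), and IRS1, its docking protein, went from 10.1 ± 1.65 to 40.6 ± 8.597 CPM (log2 2.01). IGFBP3, which binds IGF1 outside the cell, was at 46.03, 39.7 and 50.4 CPM in the vehicle libraries and 5.48, 4.95 and 8.67 CPM in the R1881 libraries (log2 -2.82, SE 0.24), and MET, the hepatocyte growth factor receptor, went from 16.6 ± 1.68 to 2.68 ± 0.551 CPM (log2 -2.63). Of 32 tested PI3K and AMPK genes 10 rose and 2 fell, with 1 fall left without R1881 library 3 or without vehicle library 1. INPP4B, a phosphoinositide phosphatase, was at 2.17, 3.43 and 3.61 CPM in the vehicle libraries and 25.5, 35.2 and 31.7 CPM in the R1881 libraries (log2 3.32), and PRKAA2, a catalytic subunit of AMPK, went from 10.4 ± 1.08 to 46.2 ± 9.53 CPM. Of 18 tested MAPK feedback genes 5 rose and 1 fell, and 3 fell without vehicle library 2. DUSP1, a phosphatase of MAP kinases, was at 17.8, 19.8 and 16.03 CPM in the vehicle libraries and 106, 40.1 and 48.9 CPM in the R1881 libraries, highest in R1881 library 1, and DUSP4, of the same family, had a log2 fold change of 1.77. Of 24 tested AP-1 and immediate early genes 7 rose (29.2%) and 2 fell (8.33%), against 7.39% and 7.72% of all genes. FOS, at 0.723, 0.959 and 0.328 CPM in the vehicle libraries and 7.402, 3.301 and 3.102 CPM in the R1881 libraries, and FOSL2, at 42.9, 46.6 and 35.6 CPM in the vehicle libraries and 139, 78.8 and 83.9 CPM in the R1881 libraries, were both highest in R1881 library 1. Of 20 clock genes 4 rose and 2 fell, with PER1 going from 16.04 ± 3.46 to 57.3 ± 15.3 CPM, BHLHE40 from 67.3 ± 15.4 to 233 ± 85.9 CPM and PER3 from 53.7 ± 4.795 to 32.4 ± 1.58 CPM.

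WNT, adhesion and matrix genes fell more often than they rose. Of WNT genes 9.09% rose and 30.3% fell, and of integrins, laminins and collagens 10.3% and 34.5%. Over all genes 7.39% rose and 7.72% fell, and over genes at 1 to 5 CPM 7.13% and 14.3%. Of 33 tested WNT genes 10 fell and 3 rose, with a median of -0.27. LEF1, a transcription factor of the pathway, was at 5.11, 3.28 and 5.31 CPM in the vehicle libraries and 0.987, 1.28 and 0.985 CPM in the R1881 libraries (log2 -2.07), the ligand WNT5A went from 5.75 ± 0.583 to 2.55 ± 0.449 CPM, and the receptor FZD5 from 25.4 ± 1.44 to 74.2 ± 2.28 CPM. Of 29 tested integrins, laminins and collagens 10 fell and 3 rose, and 1 rose without vehicle library 1. ITGA1, an integrin for collagen, went from 4.05 ± 0.605 to 1.601 ± 0.437 CPM, while LAMA1, a laminin chain of basement membrane, was at 1.45, 1.26 and 1.75 CPM in the vehicle libraries and 18.5, 25.5 and 23.8 CPM in the R1881 libraries (log2 3.92). Of 26 tested epithelial and mesenchymal genes 8 rose and 3 fell, and 5 rose without R1881 library 1. SNAI2, a repressor of epithelial genes, went from 0.156 ± 0.0885 to 5.91 ± 0.317 CPM (log2 5.18), KRT19, an epithelial keratin, from 15.3 ± 2.205 to 55.6 ± 12.2 CPM, VIM, the mesenchymal filament vimentin, from 3.21 ± 0.971 to 7.33 ± 1.17 CPM, and CDH3, P-cadherin, from 54.4 ± 1.75 to 22.8 ± 1.91 CPM. Of 30 tested TGF-beta and BMP genes 5 rose (16.7%) and 7 fell (23.3%). BMPR1B, a BMP receptor, went from 1.898 ± 0.442 to 15.5 ± 2.93 CPM and the ligand BMP7 from 2.21 ± 0.519 to 0.61 ± 0.158 CPM.

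**Figure D4:**
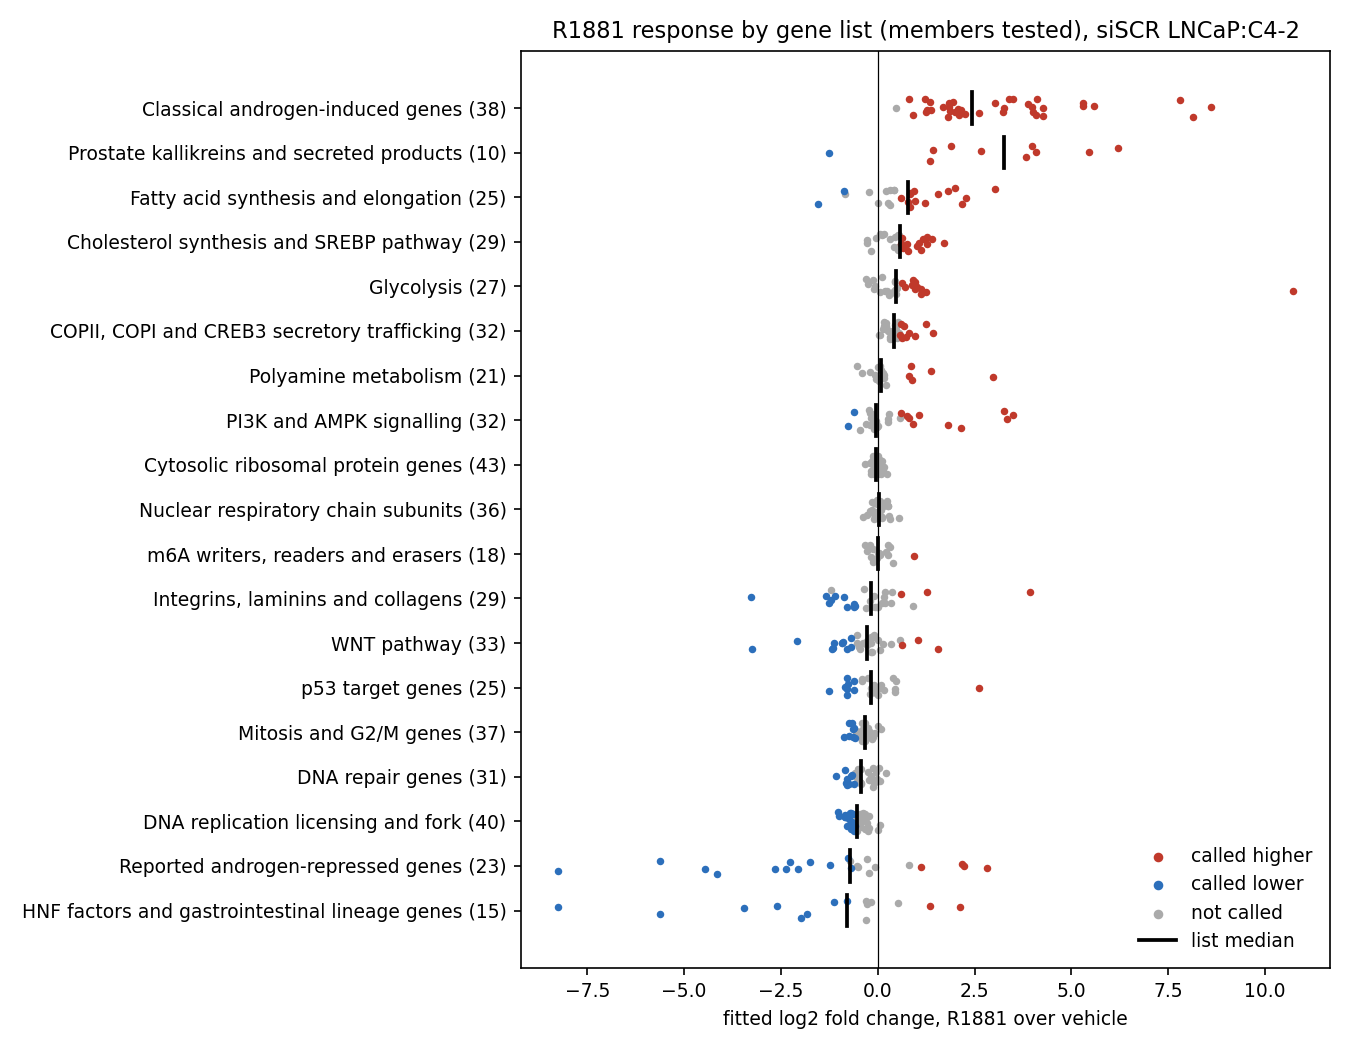
Fitted log2 fold change (horizontal axis) of each tested member of 19 lists, with members called higher in red, called lower in blue, the rest in grey, the list median as a bar and the number tested in parentheses. Medians run from 3.25 for prostate kallikreins and secreted products to -0.80 for the HNF and gastrointestinal list, and 43 ribosomal protein genes gather at 0 with none called.

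Ribosomal, ribosome biogenesis and m6A genes showed few or no calls, while ion channels and long noncoding RNAs, also given here, showed more. Over all genes 7.39% rose and 7.72% fell. None of 43 cytosolic ribosomal protein genes was called, with a median of -0.04, and none of 31 ribosome biogenesis genes, with a median of -0.18, although up to 2 of the latter fell when R1881 library 1, 2 or 3 or vehicle library 3 was left out. Of 18 tested m6A writers, readers and erasers 1 rose, CBLL1, a subunit associated with the writer complex, at 57.4, 61.2 and 60.1 CPM in the vehicle libraries and 109.6, 119 and 115 CPM in the R1881 libraries (log2 0.94, adjusted p = 4.95e-06). Of 32 tested splicing regulators 3 fell, 1 fell without R1881 library 1 and 5 without R1881 library 3. HNRNPM went from 338 ± 7.52 to 212 ± 13.8 CPM (log2 -0.67). Among 14 genes often used as references 2 rose, PGK1 above and B2M, the light chain of class I antigen presentation, which went from 162 ± 10.8 to 357 ± 13.98 CPM (log2 1.14). Of 30 tested interferon and antigen presentation genes 2 rose (6.67%) and 4 fell (13.3%). IRF1, an interferon response factor, went from 9.62 ± 0.67 to 3.31 ± 0.296 CPM and NLRC5, an activator of class I genes, from 4.18 ± 0.734 to 0.955 ± 0.21 CPM. Of 28 tested ion channels and pumps 8 rose (28.6%) and 4 fell (14.3%), among them KCNN2 and KCND3, both potassium channels, with log2 fold changes of 3.15 and 2.76. Of 20 tested prostate cancer long noncoding RNAs 6 rose (30%) and 3 fell (15%). ARLNC1 went from 0.423 ± 0.203 to 3.86 ± 0.355 CPM, PART1 from 1.07 ± 0.275 to 3.48 ± 0.606 CPM and DRAIC from 18.7 ± 1.01 to 7.85 ± 1.58 CPM. Counting used no strand, so antisense RNAs of that list are not described.

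In cells given the siMETTL3 pool, the R1881 response had the same direction for nearly all of these genes. METTL3 was at 16.8 to 18.8 CPM on unscaled totals in the siMETTL3 vehicle libraries and 19.8 to 21.1 with R1881, against 25.96 to 30.6 and 26.9 to 32.4 in siSCR, so its mRNA was lower in each siMETTL3 library than in any siSCR library but not absent. R1881 called 1747 of 16435 genes there (10.6%). Of the 1215 genes that rose in siSCR cells 1174 (96.6%) had a log2 fold change above 0 in siMETTL3 cells, and of the 1269 that fell 1186 (93.5%) had one below 0. The genes were chosen on the siSCR values, so their smaller medians in siMETTL3 cells (0.77 and -0.73) are no test of a weaker response. Tested gene by gene, the difference of the response was called for 0 of 16435 genes (0.0%) by edgeR, with a lowest adjusted p of 0.0673, 2037 genes at an unadjusted p below 0.05, and 57 genes called by DESeq2. In simulated data for this difference edgeR recovered 58.0% of changes of log2 1, so 0 called does not show equal responses. There 7.2% of the edgeR calls and 14.5% of the DESeq2 calls were false. The simulated data held 200 planted changes and no other R1881 response, unlike these libraries. KLK3 had log2 fold changes of 4.08 in siSCR and 3.93 in siMETTL3 cells, FASN 1.82 and 1.82, and INSIG1 1.72 and 0.98, with a difference of -0.74 (SE 0.14, adjusted p = 0.181) for INSIG1.

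In 22Rv1 the response differed for many of the same genes. R1881 called 2471 of 17865 genes there (13.8%). The difference of the response between the lines was called for 3266 of 19437 genes (16.8%). Genes near absence in 22Rv1 could enter that fit through LNCaP:C4-2 alone, and for them a smaller response is fixed beforehand, so the counts are given for genes that also passed the filter on low counts in the 22Rv1 libraries by themselves. Of 1051 such genes that rose in LNCaP:C4-2 709 differed, 695 of them with a lower value in 22Rv1, and of 1062 that fell 511 differed, 487 of them with a higher one. The fit held 159 further genes that rose and 204 that fell, of which 41 and 23 differed. Because the genes were chosen in LNCaP:C4-2, a smaller value elsewhere is favoured by the choice. KLK3 was at 6.88 to 7.76 CPM on unscaled totals in the 22Rv1 vehicle libraries and 6.44 to 7.601 with R1881, a log2 fold change of -0.01 against 4.08 in LNCaP:C4-2 (adjusted p of the difference = 6.90e-14). TMPRSS2 had -0.40 against 4.26 (adjusted p = 2.93e-11). FKBP5 rose in both lines, with 3.33 and 3.49. Its difference was -0.17 (SE 0.11, adjusted p = 0.324). ERRFI1 had 2.86 and 2.84, with a difference of 0.01 (SE 0.17), and B2M 1.07 and 1.14, with a difference of -0.07 (SE 0.13). Some genes moved in opposite directions. IGFBP3 rose in 22Rv1 by log2 1.39 where it fell here, and SCD and FADS2 had -0.72 and -0.83 in 22Rv1 against 0.93 and 0.79. The difference was called for these 3 genes, and 71 genes that rose here and 28 that fell were called the other way in 22Rv1.

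**Figure D5:**
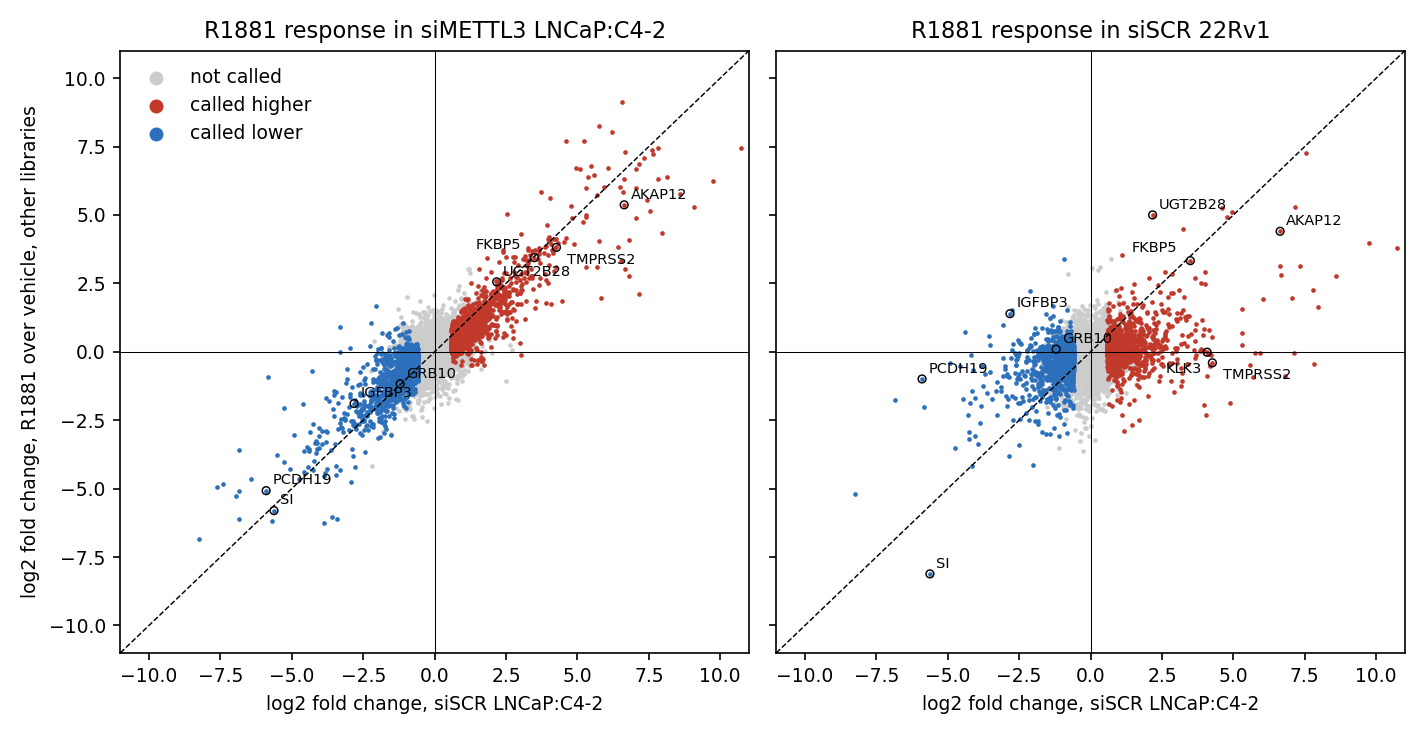
Fitted log2 fold change of R1881 over vehicle in siSCR LNCaP:C4-2 (horizontal axes) against that in siMETTL3 LNCaP:C4-2 (left, 16435 genes) and in siSCR 22Rv1 (right, 14985 genes), with genes called in siSCR LNCaP:C4-2 in colour and equality as a dashed line. Coloured points on the left lie about the dashed line, with medians of 1.08 and -1.04 in siSCR and 0.77 and -0.73 in siMETTL3. Genes were chosen on the siSCR values, so medians nearer 0 elsewhere are favoured by the choice. Coloured points on the right spread towards 0, where TMPRSS2 and KLK3 lie near 0 and FKBP5 near the line.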

How the data were processed

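RNA-seq of 24 libraries was deposited as counts, 1 table per library, and the 6 siSCR LNCaP:C4-2 libraries are described here. Per the file headers and the study's methods, the authors trimmed paired-end reads with Trim Galore and cutadapt, aligned them to GRCh38 with STAR and made the counts with featureCounts 1.5.0 on Ensembl release 83, with no strand setting and with multi-mapping fragments left out. Of 60675 gene IDs 56558 were named from RefSeq and gene name tables.

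Samples were grouped by their labels. Genes with enough counts (filterByExpr, minimum count 10, minimum total 15) were tested with edgeR 4.0.16 in R 4.3.3, by TMM scaling and its quasi-likelihood test, with p-values adjusted after Benjamini and Hochberg. The fit held the 12 LNCaP:C4-2 libraries with a mean per condition (8 residual degrees of freedom), or all 24 for the difference between lines. DESeq2 1.42.0 was an alternative, and the code was tested on simulated data. CPM are on TMM-scaled totals. Values given as a ± b are mean ± SD over 3 libraries, and log2 values are fitted fold changes of R1881 over vehicle with their SE. A fold of a gene with no count in a group is a bound against 3 counts over that group.

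The members, the 50 gene lists and the tests were chosen with earlier results of these data known. Named genes were METTL3, the 8 largest rises and falls in fold with at least 5 CPM and groups that did not overlap, the 8 largest in CPM, up to 4 called genes per list with at least 1 CPM and the 5 largest differences between lines. Some of these whose call was lost when 1 library was left out are not described, and genes named outside this rule are marked. A few genes that the rule names are not reported here. Alternatives were another tool, scaling, filters, thresholds, the replicate block and leaving out each library.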

Additional observations from a re-analysis of the deposited data

Results flagged for a closer look

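Results are listed here because the R1881 response differed between LNCaP:C4-2 and 22Rv1 by a test of the difference itself. In all, 3266 genes differed (edgeR, adjusted p below 0.05). For the 5 genes below, the fitted difference in log2 response, 22Rv1 minus LNCaP:C4-2, depends on the prior count, because at least 1 group was at or near 0 counts. ABCB11, CD200, PLA2G4E and ADAM7 had at most 7 counts in any siSCR 22Rv1 library and could enter the fit through LNCaP:C4-2 alone. For these genes a smaller response in 22Rv1 was fixed beforehand, and the test adds nothing to their absence there. ABCB11, the bile salt export pump, had 239 counts over the vehicle libraries and 4 over the R1881 libraries of LNCaP:C4-2, against 0 and 2 in 22Rv1, and a fitted difference of 8.345. CD200, a membrane glycoprotein that binds a receptor on myeloid cells, had 85 and 3 counts in LNCaP:C4-2 and 0 and 4 in 22Rv1, a difference of 8.123. PLA2G4E, a cytosolic phospholipase, had 0 and 199 counts in LNCaP:C4-2 and 10 and 18 in 22Rv1, a difference of -8.291. ADAM7, a protein of the ADAM family, had 0 and 104 counts in LNCaP:C4-2 and 3 and 3 in 22Rv1, a difference of -8.175. The antisense RNA PTPRN2-AS1 had 0 and 83 counts in LNCaP:C4-2 and 44 and 32 in 22Rv1, a difference of -8.308, and without strand its reads cannot be told apart from those of PTPRN2.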

How the results depend on the processing

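The number of DEGs stayed within 1.5 times of 2484 by DESeq2 (2523), RLE scaling (2478), adjusted p below 0.01 (1858), at least 10 counts in every library (1929), library size alone (2726), no filter on low counts (2724) and the 6 siSCR libraries alone (2382). Without a fold threshold 4081 genes were called (24.8%), 2088 higher and 1993 lower, and with the threshold inside the test 1014, 597 higher and 417 lower, because these settings ask less or more of the fold. Leaving out 1 library gave 2038 to 2464 DEGs, 1042 to 1220 higher and 996 to 1244 lower. The difference of the response between siMETTL3 and siSCR was called for 0 genes by edgeR, 57 by DESeq2 and 351 without the filter, and for 0 to 1 when 1 library was left out, and the cause was not tested. The cell line difference, 3266 genes, ranged from 2401 with the fold threshold to 3663 over these settings and from 2739 to 3072 when 1 library was left out. The labels do not say whether replicate numbers pair the samples, and the main fit used no pairing. Correlations of deviations between same-numbered vehicle and R1881 libraries were 0.106, -0.128 and 0.142. With 3 libraries per group these cannot exclude a shared culture or day. Under a replicate block 2381 genes were called, 1190 higher and 1191 lower, and the siMETTL3 and cell line differences gave 0 and 3085. Depth limits genes near the floor, which is 0.143 to 0.179 CPM for 3 counts in 1 library.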

Other observations

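Of 41 tested axon guidance genes 5 rose and 5 fell, and 8 fell without R1881 library 1. SEMA3C, a secreted semaphorin, was at 151, 132 and 159 CPM in the vehicle libraries and 36.8, 41.5 and 40.1 CPM in the R1881 libraries (log2 -1.900, SE 0.12), and EPHB6, an ephrin receptor without kinase activity, went from 0.35 ± 0.135 to 1.86 ± 0.2 CPM (log2 2.39). Of 20 tested Notch pathway genes 2 rose (10%) and 1 fell (5%), near the 7.39% and 7.72% of all genes. When 1 library was left out there were 1 to 3 rises and 1 or 2 falls. HES6, a repressor related to Notch targets, was at 117, 105 and 82.2 CPM in the vehicle libraries and 314, 205 and 211 CPM in the R1881 libraries (log2 1.26), and LFNG, which glycosylates Notch receptors, went from 22.3 ± 3.400 to 12.2 ± 0.646 CPM (log2 -0.87). Of 14 tested MYC network genes 2 rose and none fell, against 1 rise and 1 fall without R1881 library 1 or without vehicle library 3. Of 13 tested neuroendocrine and neuronal genes 4 rose (30.8%, against 7.39% of all genes) and 3 fell (23.1%, against 7.72%), with 1 to 4 rises and 1 or 2 falls when 1 library was left out. Of 33 tricarboxylic acid cycle genes 2 rose (6.06%) and 1 fell (3.03%), no more often than all genes. The fall was lost without R1881 library 1 or 2 and without vehicle library 1 or 2. Of 25 pentose phosphate and one-carbon genes 2 rose and 2 fell, 8% each and near the shares of all genes, with 1 fall left without R1881 library 2.

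Summed basal markers lay between 25.9 and 32.6 CPM over the 6 libraries, carried mostly by DST and ITGB4, while 2 of the 4 tested members rose and 1 fell. KRT14 and KRT15, basal keratins named after their values were seen, were at no more than 0.0505 CPM in vehicle and at 0.246 to 0.856 CPM and 0.329 to 0.689 CPM with R1881. Summed stromal markers lay between 38.4 and 62.5 CPM and neuroendocrine markers between 12.75 and 17.3 CPM. Immune markers were at 3.94 to 4.91 CPM in vehicle and 2.26 to 2.69 CPM with R1881. PTPRC, the leukocyte antigen CD45, named after its values were seen, was at 1.29, 1.11 and 1.53 CPM in the vehicle libraries and 0, 0 and 0 CPM in the R1881 libraries, and its ratio to vehicle was at most log2 -4.58 with the R1881 libraries set at the floor of 3 counts. Endothelial markers were at 2.95 to 3.38 CPM in vehicle and 5.81 to 6.01 CPM with R1881, and their one tested member was VWF, von Willebrand factor, at 2.79, 3.23 and 3.12 CPM in the vehicle libraries and 5.76, 5.93 and 5.86 CPM in the R1881 libraries (log2 0.94).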
